A study of Homo sapiens with 24 samples.

Results

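The combination of a SYK inhibitor and a BET inhibitor in SU-DHL-4, an established line of germinal centre B-cell-like diffuse large B-cell lymphoma, was compared with vehicle. Its members were the 3 Ento+AZD arrays (1 µM Entospletinib with 0.01 µM AZD5153 for 72 h) and the 3 DMSO arrays of this line, 6 arrays of the 24 in the series, and all 25575 rows of the expression table were tested. The series also held 3 arrays of SU-DHL-4 under 1 µM Entospletinib alone (Ento) and 3 under 0.01 µM AZD5153 alone (AZD), and the same 4 groups of 3 in DG-75, a Burkitt lymphoma line. All cells were cultured lines exposed for 72 h, and each group was described by the submitters as a biological triplicate. Each line is a single established culture, so the replicates carried no variation between patients or between lymphomas.

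SYK is a cytoplasmic tyrosine kinase that docks on the phosphorylated tails of CD79A and CD79B and passes the B-cell receptor signal on to BTK, BLNK, PLCG2 and the PI3 kinase pathway. Entospletinib binds in its ATP pocket. The BET proteins, BRD2 and BRD3 among them, read acetylated lysines on histones and help recruit the elongation factor P-TEFb to promoters and enhancers, and AZD5153 is a bivalent ligand of their bromodomains. Both classes of compound slow the proliferation of many B-cell lymphoma lines, and the comparison asks which transcripts were lower or higher when both were given together.

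A row was called where the adjusted p (limma, Benjamini-Hochberg over all rows) was under 0.05 and the change was above 2-fold. In Ento+AZD against DMSO 304 rows of 300 gene symbols were called, 1.19% of the rows tested. Of these, 278 were lower (1.09% of rows) and 26 were higher (0.102% of rows), so 8.55% of the calls were rises, a share that became 19.4% (47 of 242) after quantile normalization and 21.9% (49 of 224) after centring each array on its median. The log2 fold changes of called rows ran from -2.59 to 2.0. All 304 had the same sign in the 3 same-numbered differences, which calling in a fit with the replicate number favours. Of the 278 rows called lower 119 belonged to the 10 lists of DNA replication, repair, cell cycle control, mitosis and histones, and 159 did not. MYB, HEMGN, PARP9, EPSTI1, ELOVL6, HSPB1 and SLC7A11 were among the larger falls, and the named rises included TARS3, SGK1, XBP1, BACH2 and AFF3.

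**Figure D1:**
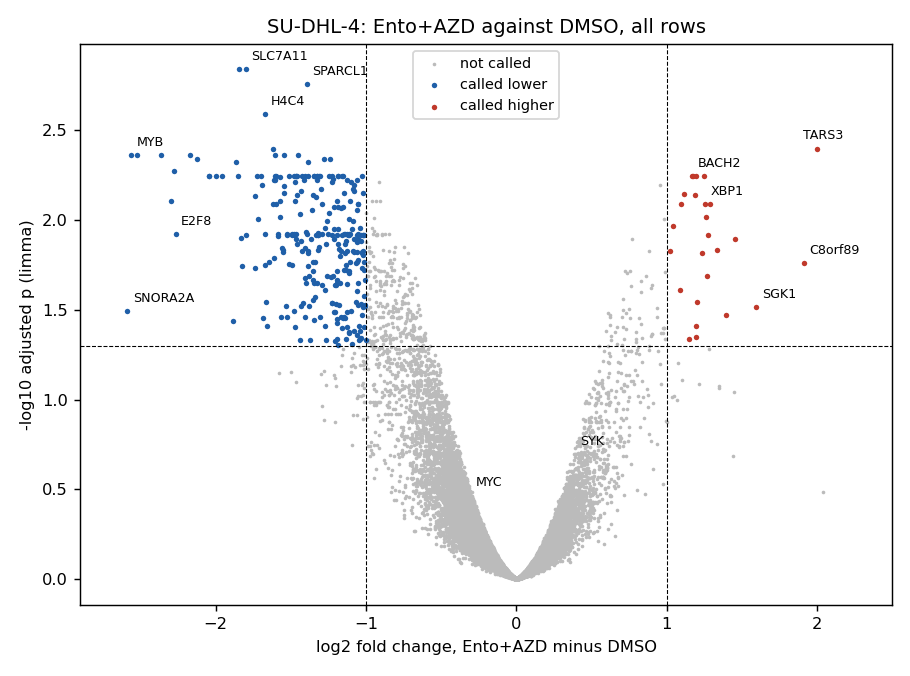
Every row of the table in SU-DHL-4 Ento+AZD against DMSO, with the log2 fold change on the x axis and -log10 of the adjusted p on the y axis. Blue points are the 278 rows called lower, red points the 26 called higher, and dashed lines mark the thresholds. Calls lie mainly on the left.

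The arrays matched the labelled cell type. Of the B-cell markers MS4A1, CD79A and CD22 had DMSO means of 11.57, 12.09 and 11.16 on the log2 scale, while CR2 stood at 2.41. Germinal centre markers ran from 6.68 to 11.75, BCL6 being the highest. None of the 8 B-cell and none of the 8 germinal centre markers was called. The array medians lay between 4.89 and 5.13, the arrays of a group correlated at 0.981 to 0.991, and the median gene's SD was 0.177 over DMSO and 0.189 over Ento+AZD. The median of all rows was -0.08 in Ento+AZD against DMSO, and quantile normalization and centring moved it by 0.10 and 0.13.

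The called sets rested unevenly on single arrays. The count was 249, 83 and 162 without Ento+AZD replicate 1, 2 and 3, 330, 56 and 166 without DMSO replicate 1, 2 and 3, and 45 when the replicate number was not in the fit. With all arrays of a number left out, so that each group held 2, it was 270 without number 1, 55 without number 2 and 0 without number 3. Of the called genes named by the rule given with the methods, those that kept the call without the replicate number were MUC19, LRRTM4-AS1, HEMGN, PARP9, EPSTI1, SLC7A11, HSPB1, SPARCL1, RGS9, GNB3, CD84, CDT1, TARS3 and NUP50-DT, and the others lost it. In 44 genes the call was made in all 6 fits that left out 1 of these arrays, 40 lower and 4 higher. Across all rows, 4089 (16%) had every Ento+AZD array below every DMSO array and 1239 (4.84%) had every Ento+AZD array above, which is the background for the counts of members given below. Because RNA of whole cultures was measured, fewer cycling cells and less of a transcript per cell cannot be told apart in any of the following values.

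Sequence upstream of the genes of mitosis is shown first, since that list had the highest share of members called among the 28 lists examined. The promoters are the 250 bases before and 50 bases after the annotated start, from RefSeq on GRCh38.p14. They belong to the 4 called members with the smallest adjusted p that had an entry and lay outside a chromosome that the rule left out. RACGAP1 and AURKA ranked among these members too. ANLN encodes the actin-binding protein anillin of the cleavage furrow, PRC1 a bundler of midzone microtubules, ASPM a protein of the spindle poles and CDCA7 a cofactor of the HELLS nucleosome remodeller. The stretches are chr7:36389612-36389911 (plus strand) for ANLN, chr15:90994486-90994785 (minus strand) for PRC1, chr1:197146620-197146919 (minus strand) for ASPM and chr2:173354622-173354921 (plus strand) for CDCA7, all written 5′ to 3′ on the gene's own strand. Capitals mark CCAAT or TTTGAA read on either strand, so that ATTGG and TTCAAA are capitals too.
ANLN: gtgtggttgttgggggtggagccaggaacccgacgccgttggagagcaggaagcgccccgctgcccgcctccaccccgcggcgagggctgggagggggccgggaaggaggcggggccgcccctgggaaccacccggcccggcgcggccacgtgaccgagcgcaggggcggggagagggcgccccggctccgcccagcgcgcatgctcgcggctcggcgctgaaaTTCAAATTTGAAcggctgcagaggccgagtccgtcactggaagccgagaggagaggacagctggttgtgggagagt
PRC1: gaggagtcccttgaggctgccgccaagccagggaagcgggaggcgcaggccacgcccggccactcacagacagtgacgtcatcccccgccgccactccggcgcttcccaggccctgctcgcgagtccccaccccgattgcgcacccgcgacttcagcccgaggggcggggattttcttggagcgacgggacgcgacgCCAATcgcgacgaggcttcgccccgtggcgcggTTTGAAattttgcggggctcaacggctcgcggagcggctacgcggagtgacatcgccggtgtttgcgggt
ASPM: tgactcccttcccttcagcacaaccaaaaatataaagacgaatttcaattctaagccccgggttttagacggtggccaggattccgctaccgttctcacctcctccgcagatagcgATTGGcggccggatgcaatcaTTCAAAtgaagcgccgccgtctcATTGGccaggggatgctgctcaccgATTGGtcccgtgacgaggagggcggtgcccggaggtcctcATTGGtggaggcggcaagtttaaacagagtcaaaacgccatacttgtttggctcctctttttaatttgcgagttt
CDCA7: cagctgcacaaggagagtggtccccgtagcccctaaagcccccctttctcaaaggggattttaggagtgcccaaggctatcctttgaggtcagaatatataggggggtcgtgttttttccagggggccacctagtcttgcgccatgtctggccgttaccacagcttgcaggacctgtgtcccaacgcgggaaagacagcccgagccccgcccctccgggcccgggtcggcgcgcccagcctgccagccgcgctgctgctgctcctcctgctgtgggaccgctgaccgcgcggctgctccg

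CCAAT is the box bound by the factor NF-Y, and TTTGAA is the core of the cell cycle genes homology region read by the DREAM and MYBL2 complexes. In ANLN a TTTGAA and its reverse complement stood end to end just before the start. PRC1 held a CCAAT and, nearer the start, a TTTGAA. ASPM held 4 reversed CCAAT boxes and a reversed TTTGAA. CDCA7 held neither run of letters, though it held GCGGGAAA, the reverse complement of TTTCCCGC, a run taken up below. Of the 53 measured genes of mitosis 44 had a promoter entry, and 68.2% of these held CCAAT, 70.5% held TTTGAA and 52.3% held both. Over all 27305 promoters of the table the shares were 35.7%, 15.4% and 6.08%. Over the 17249 promoters of measured genes they were 36.3%, 12.5% and 5.07%, and over the 224 promoters of genes called lower 47.8%, 25.4% and 17.4%.

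The letters of the E2F site, searched as TTTCCCGC or TTTGGCGC on both strands, were spread differently over the lists. At least 1 of these runs was found in 40% of the 25 promoters of the helicase and origin licensing list and in 30.8% of the 26 promoters of the replication fork list. The share was 9.09% in the mitosis list, 11.6% in genes called lower, 2.85% in measured genes with a promoter and 2.31% in all promoters. Histone promoters held none of them and held CCAAT in 85.2% of 54 entries. Each motif was counted on its own where motifs touched or overlapped, and a match of letters says nothing of occupancy in these cells.

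The genes of mitosis (mitotic kinases, the spindle checkpoint, condensin and kinesins) had 28 of 53 measured members called lower and none higher. The median log2 fold change was -1.14, and in 50 members every Ento+AZD array was below every DMSO array. PRC1 had log2 values of 9.22, 9.01 and 9.69 in DMSO 1 to 3 and of 8.11, 6.40 and 8.34 in Ento+AZD 1 to 3, a fall of 3.22-fold (log2 fold change -1.69 ± 0.25 SE, adjusted p = 0.00635, limma). The groups did not overlap, and Ento+AZD 2 was well below the other treated arrays. ANLN fell 2.47-fold, from 10.17, 9.72 and 10.44 to 9.16, 7.94 and 9.31 (adjusted p = 0.00567, limma). ASPM, at 8.66, 8.31 and 9.04 in DMSO, read 7.63, 6.49 and 7.85 under Ento+AZD and fell 2.55-fold (adjusted p = 0.00722, limma). CDCA7 read 7.54, 7.39 and 8.41 in DMSO against 6.73, 5.72 and 7.07 (log2 fold change -1.28, adjusted p = 0.0111, limma). In all of these genes the treated replicate 2 was the lowest array.

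Other members of that list were called with changes of the same order. RACGAP1, a GTPase-activating protein of the midzone, fell by 1.35 on the log2 scale, and the kinase genes AURKA and PLK1 fell by 1.33 and 1.39. The kinesin genes KIF20A, KIF2C, KIF14 and KIF4A fell by 1.82, 1.74, 1.58 and 1.47. TOP2A, the topoisomerase that decatenates sister chromatids, fell by 1.38. MKI67, the coat protein of mitotic chromosomes used as a proliferation marker and picked here after its values were seen, read 10.13, 10.20 and 10.71 in DMSO against 9.37, 7.92 and 9.56 (log2 fold change -1.4, adjusted p = 0.0116, limma).

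The centromere and kinetochore list had 14 of 41 members called lower, none higher, and a median of -0.85. HJURP, the chaperone that deposits CENPA, fell by 1.61, and SPC25, NDC80 and NUF2, subunits of the complex that grips microtubules, fell by 1.67, 1.54 and 1.41. CENPA itself fell by 1.15 and CENPF by 1.21. In 30 of the 41 members every treated array was below every DMSO array.

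Among the cyclins, CDKs, CDC25 phosphatases and CDK inhibitors 11 of 30 members were called lower and none higher. CCNA2, the cyclin of S phase and G2, read 10.68, 10.46 and 10.96 in DMSO against 9.72, 8.0 and 9.66 under Ento+AZD, a log2 fold change of -1.57. CDK1 fell by 1.60, CDK2 by 1.36, CCNE2 by 1.37, CDC25A by 1.46 and CDC25C by 1.67. The kinase WEE1, which restrains CDK1, fell by 1.14. CDK4, CDK6, CCND2 and CCND3, which act in early G1, gave log2 fold changes of -0.53, -0.13, -0.45 and -0.37 and were not called, and CCNB1 gave -0.84 (adjusted p = 0.066, limma) and was not called.

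A CDK inhibitor was among the falls. CDKN1B, which encodes p27, read 6.72, 5.58 and 7.0 in DMSO and 5.40, 4.30 and 5.43 under Ento+AZD. The groups did not overlap, and the replicate 2 arrays of both were the lowest. The change was 2.62-fold lower (log2 fold change -1.39 ± 0.18 SE, adjusted p = 0.00478, limma), and the call was made in all 6 fits without 1 array but not without the replicate term (adjusted p = 0.304). CDKN1A, which encodes p21, gave -0.24 and was not called.

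DNA replication genes were lower at several steps. Of the helicase and origin licensing list 11 of 31 members were called lower and none higher, with a median of -0.87 and 23 members whose groups did not overlap downwards. GINS2, a subunit of the CMG helicase, read 7.93, 7.85 and 8.67 in DMSO against 6.54, 5.41 and 7.33, a 3.31-fold fall (log2 fold change -1.73 ± 0.23 SE, adjusted p = 0.00567, limma). The highest treated array stayed below the lowest DMSO array. ORC1 and CDT1, which load the MCM ring, fell by 1.46 and 1.4. MCM6, a subunit of that ring, fell by 1.32. GMNN, the inhibitor of CDT1, fell by 1.43.

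At the replication fork 9 of 32 members were called lower and none higher (median -0.85). POLE2, a subunit of the leading strand polymerase, read 7.23, 6.96 and 8.06 in DMSO and 5.80, 3.80 and 6.52 under Ento+AZD, 4.12-fold lower (adjusted p = 0.00567, limma). PRIM1, the primase, fell by 1.48, and PCNA, the sliding clamp, fell by 1.26. Deoxynucleotide synthesis had 5 of 18 members called lower, among them RRM2 of ribonucleotide reductase (-1.58) and TYMS, thymidylate synthase (-1.67).

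Chromatin assembly and DNA methylation maintenance had 4 of 19 members called lower. CHAF1B, a subunit of chromatin assembly factor 1, which places histones behind the fork, read 7.07, 7.22 and 7.84 in DMSO and 5.68, 3.99 and 6.31 under Ento+AZD. It fell 4.13-fold (log2 fold change -2.05 ± 0.29 SE, adjusted p = 0.00567, limma), and the call was made in all 6 fits without 1 array but not without the replicate term (adjusted p = 0.0995). ATAD2 and UHRF1 both fell by 1.13.

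Replication-dependent histones had 21 of 59 members called lower and none higher, with a median of -0.88, and in 45 members every treated array was below every DMSO array. H2AC4 read 9.16, 8.63 and 9.19 in DMSO and 7.63, 5.56 and 7.80 under Ento+AZD, 3.99-fold lower (adjusted p = 0.00567, limma). H4C4 read 8.83, 8.01 and 8.94 against 7.28, 6.13 and 7.35, 3.19-fold lower (adjusted p = 0.00258, limma). Histone genes of a class are near-identical in their coding parts, so probes of single members may share signal.

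Homologous recombination, Fanconi and mismatch repair had 11 of 40 members called lower and none higher (median -0.78). EXO1 fell by 1.88, FANCI by 1.64 and CHEK1, the checkpoint kinase of stalled forks, by 1.72. BRCA1 fell by 1.08, which was under 2-fold after centring.

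Of the E2F, RB and MYB family 4 of 21 members were called lower. MYB, a transcription factor of haematopoietic progenitors and germinal centre B cells, read 6.52, 6.90 and 7.55 in DMSO and 4.64, 3.24 and 5.39 under Ento+AZD. All treated arrays were more than 1 log2 unit below the lowest DMSO array. The change was 5.91-fold lower (log2 fold change -2.56 ± 0.31 SE, adjusted p = 0.00434, limma), and the call was made in all 6 fits without 1 array, though the adjusted p without the replicate term was 0.0666. E2F8, an atypical E2F repressor, read 7.78, 7.69 and 8.53 in DMSO and 6.43, 3.92 and 6.85 under Ento+AZD, 4.81-fold lower (adjusted p = 0.012, limma). That call was lost without DMSO replicate 2. FOXM1, a factor that drives genes of mitosis, fell by 1.57, and E2F2 fell by 1.46.

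**Figure D2:**
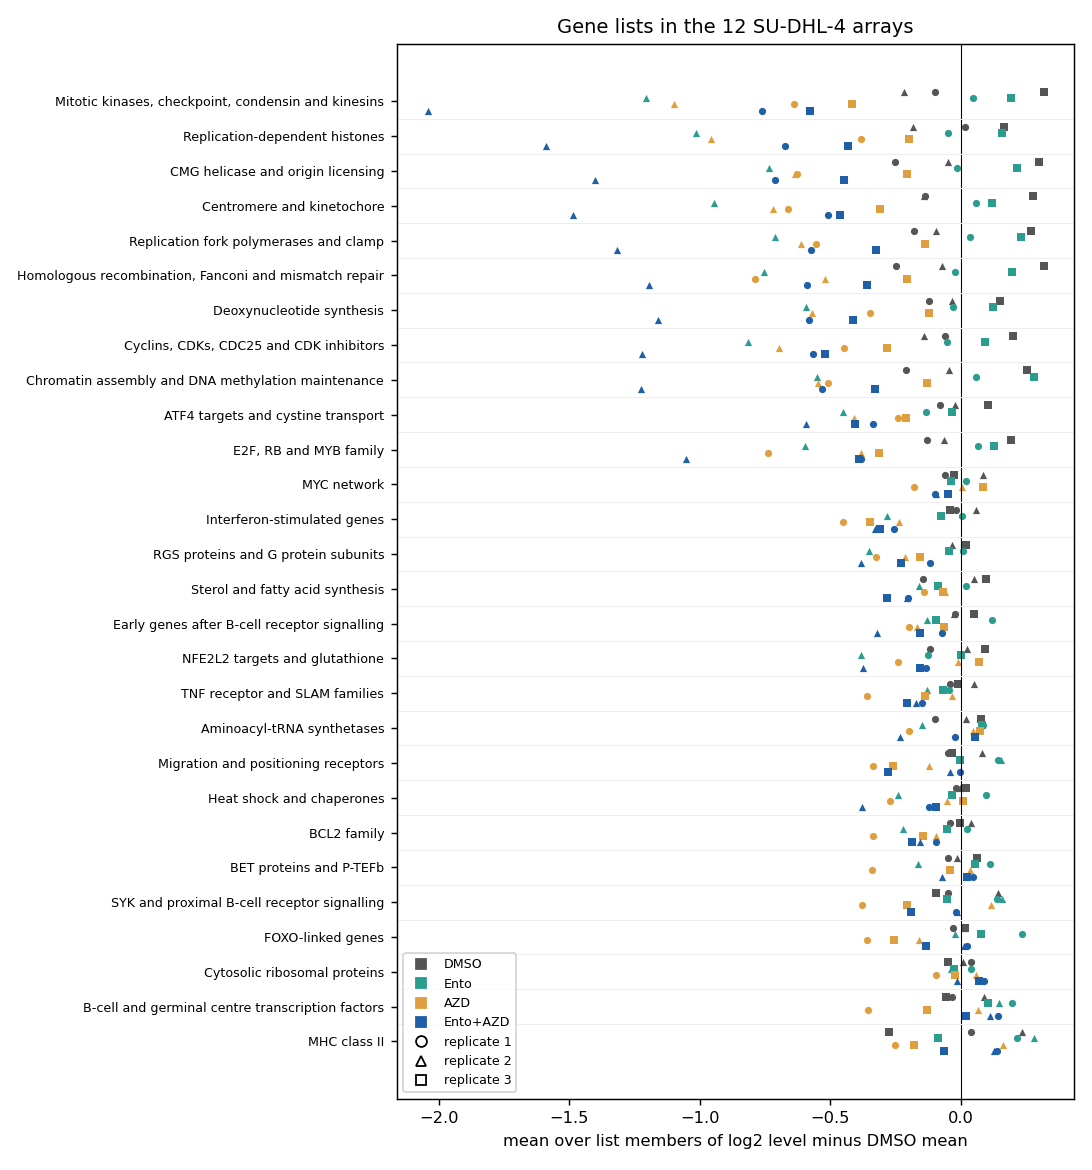
Mean log2 level of each gene list in each of the 12 SU-DHL-4 arrays, given as the difference from the mean of the 3 DMSO arrays. Colours are the treatments and marker shapes the replicate numbers. For mitosis the Ento+AZD arrays lie at -0.76, -2.04 and -0.58 and the DMSO arrays between -0.22 and 0.32.

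The treated replicate 2 arrays stood low in the cell cycle lists. In the mitosis list the mean difference from the DMSO mean was -0.76, -2.04 and -0.58 in Ento+AZD 1 to 3, and 0.05, -1.21 and 0.19 in Ento 1 to 3. It was -0.64, -1.10 and -0.42 in AZD 1 to 3. The replicate 2 array was thus the lowest of each treated group, and DMSO replicate 2 stood at -0.22. Ento+AZD replicate 2 and Ento replicate 2 were the lowest of their groups in all 10 cell cycle lists, while in AZD replicate 1 was the lowest in the E2F, RB and MYB family and in homologous recombination. Without Ento+AZD replicate 2 the list's median was -0.91 and 3 of its members were called, and without DMSO replicate 2 the number was 2. The same omissions left 2 and 1 called members in the helicase and origin licensing list, in the cyclin list and in the recombination list, 1 and 1 in the centromere list, 2 and 2 at the replication fork, 0 and 0 in deoxynucleotide synthesis and 6 and 7 among the histones. Without all arrays numbered 1, 2 or 3, in that order, 22, 1 and 0 genes of mitosis were called, 10, 1 and 0 of the helicase and origin licensing list and 11, 1 and 0 of the centromere list, and the mitosis medians were -1.34, -0.81 and -1.31. Without the replicate term in the fit no member of the cell cycle lists was called except 1 of the helicase and origin licensing list, with the same medians. Scaling moved some counts too: after quantile normalization and after centring 26 and 25 genes of mitosis, 11 and 9 of the centromere list, 5 and 4 of the replication fork list and 15 and 12 histones were called.

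The named cell cycle genes differed in how far they rested on these arrays. RACGAP1, HJURP, GINS2, POLE2, PRIM1, CHAF1B, H2AC4, H4C4, MYB and CDKN1B were called in all 6 fits without 1 array. PRC1, ANLN, CDT1 and CDC25A lost the call without DMSO replicate 2, and AURKA lost it without Ento+AZD replicate 2. CCNA2, FOXM1, NDC80, ORC1, RRM2 and CHEK1 lost it in both of these fits. MCM6 also lost it without Ento+AZD replicate 3, and E2F2, ATAD2 and UHRF1 lost it without replicate 2 or replicate 3 of either group, and ATAD2 and UHRF1 also after centring. Of all the genes in this paragraph CDT1 alone was still called without the replicate term (adjusted p = 0.0492, limma).

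The calls most stable to leaving out an array lay partly outside these lists. SLC7A11, the light chain of the cystine and glutamate exchanger, read 7.71, 7.62 and 8.02 in DMSO and 6.01, 5.94 and 6.01 under Ento+AZD. The treated arrays lay close together, far under the DMSO arrays. It fell 3.48-fold (log2 fold change -1.80 ± 0.17 SE, adjusted p = 0.00145, limma; 0.0024 without the replicate term). Of the 31 ATF4 targets and cystine transport genes 3 were called lower, with a median of -0.41, and after quantile normalization or centring 1 was called. CBS, which makes cystathionine from homocysteine, fell by 1.13, a call lost without replicate 2 of either group and under either scaling. DDIT4, an inhibitor of mTORC1, fell by 1.19, a call lost in each of the 6 fits without 1 array and under either scaling. The NFE2L2 and glutathione list had no called member of 20 (median -0.17).

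PARP9 and DTX3L form a complex of an ADP-ribosyltransferase and a ubiquitin ligase that is induced by interferons. PARP9 read 7.75, 7.48 and 7.23 in DMSO and 5.47, 5.32 and 5.16 under Ento+AZD, with both groups tight and far apart. It fell 4.5-fold (log2 fold change -2.17 ± 0.26 SE, adjusted p = 0.00434, limma; 0.00848 without the replicate term). DTX3L, named after its values were seen, read 6.44, 6.01 and 6.06 against 4.40, 3.76 and 4.48, 3.88-fold lower. EPSTI1, another interferon-responsive gene, read 6.23, 5.93 and 5.69 against 4.20, 3.50 and 3.78, 4.36-fold lower (adjusted p = 0.00458, limma). The list of 40 interferon-stimulated genes had 2 called members in all, PARP9 and EPSTI1, and a median of -0.22.

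HEMGN, a nuclear protein of haematopoietic cells, read 5.58, 5.01 and 6.22 in DMSO and 3.86, 2.33 and 3.52 under Ento+AZD. The highest treated array was below the lowest DMSO array, and the lowest treated value was in the low range of the arrays. The measured change was 5.15-fold lower (log2 fold change -2.36 ± 0.28 SE, adjusted p = 0.00434, limma), at values with no measured background. LRRCC1, a centrosomal protein, read 6.21, 5.57 and 6.64 against 4.14, 3.18 and 4.28, 4.84-fold lower (adjusted p = 0.00536, limma). Both calls were made in all 6 fits without 1 array. Without the replicate term HEMGN was still called (adjusted p = 0.0302, limma) and LRRCC1 was not (adjusted p = 0.0683, limma).

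ELOVL6, which elongates palmitate to stearate, was the called member of the 30 sterol and fatty acid genes (list median -0.19). It read 7.92, 8.0 and 7.94 in DMSO and 6.67, 5.28 and 6.32 under Ento+AZD, 3.64-fold lower (log2 fold change -1.86 ± 0.23 SE, adjusted p = 0.00478, limma). HSPB1, a small heat shock protein, was the called member of the 30 chaperone genes. It read 8.05, 7.51 and 8.0 in DMSO and 6.25, 6.49 and 5.99 under Ento+AZD, 3.05-fold lower (adjusted p = 0.00434, limma). Neither gene's groups overlapped. Without the replicate term the adjusted p of ELOVL6 was 0.0512 (limma), and that of HSPB1 was 0.0124.

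Further falls had large changes, and the calls of SNORA2A and MUC19 were less firm when an array was left out. SNORA2A, a guide RNA for pseudouridine in ribosomal RNA, had the largest called fall, from 8.66, 8.15 and 8.14 to 5.68, 6.14 and 5.36 (6.01-fold, log2 fold change -2.59 ± 0.55 SE, adjusted p = 0.0321, limma). That call was lost in each of the 6 fits without 1 array and under either scaling, although the groups did not overlap. MUC19, a gel-forming mucin, fell 4.91-fold, a call lost without Ento+AZD replicate 2 or DMSO replicate 2. LRRTM4-AS1, an antisense transcript, fell 5.76-fold (adjusted p = 0.00434, limma) in all 6 such fits. Probes for antisense transcripts may lie over the partner gene, so those names are uncertain.

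Other called falls were picked after their values were seen. LGALS1, galectin-1, read 8.82, 8.39 and 8.41 in DMSO and 7.12, 7.08 and 6.79 under Ento+AZD (2.92-fold lower). S100A4, a calcium-binding protein linked to cell motility, read 7.22, 6.95 and 6.48 against 5.76, 5.28 and 5.21 (2.76-fold lower). EMP3, a membrane protein, read 9.36, 9.01 and 9.12 against 8.19, 7.97 and 7.61 (2.36-fold lower), so that in each of these genes the groups were apart. C1orf54 fell 3.6-fold (adjusted p = 0.00145, limma), and PIM1, a serine/threonine kinase induced by cytokines, fell 2.74-fold (adjusted p = 0.00729, limma).

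**Figure D3:**
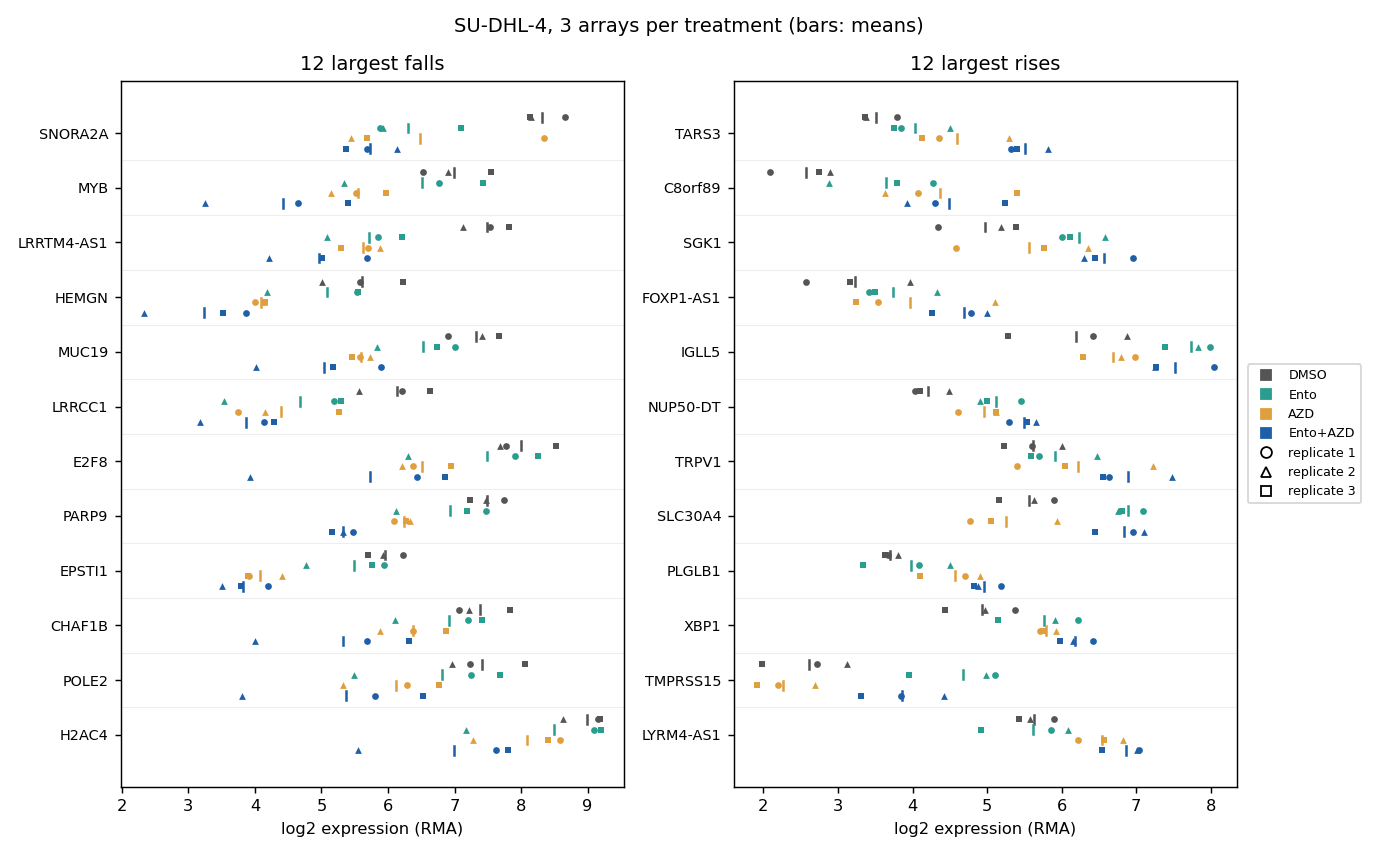
Log2 expression of the 12 largest called falls and the 12 largest called rises in the 12 SU-DHL-4 arrays. Points are arrays by treatment, and bars are group means over 3 arrays. In MYB and PARP9 the Ento+AZD points lie below the DMSO points, and in TARS3 they lie above.

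The rises were fewer and smaller. TARS3, a threonyl-tRNA synthetase paralogue, read 3.79, 3.38 and 3.36 in DMSO and 5.33, 5.81 and 5.39 under Ento+AZD. The lowest treated array was above the highest DMSO array by more than 1 log2 unit. It rose by 2.0 ± 0.22 SE on the log2 scale (adjusted p = 0.004, limma), and it was the called member of the 21 aminoacyl-tRNA synthetases, whose median was -0.16. SGK1, a kinase activated through PI3 kinase signalling, read 4.35, 5.19 and 5.39 against 6.96, 6.30 and 6.45 (3.02-fold higher, adjusted p = 0.0305, limma). Its call was made in 1 of the 6 fits without 1 array.

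Transcription factors of B-cell identity were among the rises, with 3 of the 34 members of that list called higher, none lower, and a median of 0.06. BACH2, a repressor that holds B cells from becoming plasma cells, read 7.51, 8.23 and 7.48 in DMSO and 8.96, 9.26 and 8.51 under Ento+AZD. Every treated array exceeded every DMSO array. It rose 2.24-fold (log2 fold change 1.17 ± 0.15 SE, adjusted p = 0.00567, limma), in all 6 fits without 1 array but not without the replicate term (adjusted p = 0.0933). AFF3, a nuclear elongation complex protein of lymphoid cells, read 7.86, 8.18 and 7.46 against 8.84, 9.44 and 8.57 and rose 2.16-fold (adjusted p = 0.00715, limma), a call lost without DMSO replicate 2.

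XBP1, the factor of secretory capacity and plasma cell function, read 5.38, 4.98 and 4.43 in DMSO and 6.42, 6.16 and 5.98 under Ento+AZD. The groups did not overlap. It rose 2.38-fold (adjusted p = 0.00811, limma), a call lost without DMSO replicate 2 or DMSO replicate 3. The other plasma cell markers were not called, PRDM1 having a DMSO mean of 2.55 and IRF4 a log2 fold change of 0.00. IGLL5, which lies in the immunoglobulin lambda locus and shares sequence with its constant segments, rose by 1.33, in 2 of the 6 fits without 1 array.

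Other called rises included some with values near the low end of the arrays, with uncertain probes or with calls lost in most fits without 1 array. TMPRSS15, the protease enteropeptidase, read 2.71, 3.13 and 1.98 in DMSO and 3.84, 4.42 and 3.31 under Ento+AZD (2.38-fold higher, adjusted p = 0.00567, limma), a call lost without the replicate term (adjusted p = 0.166). C8orf89 rose 3.77-fold and FOXP1-AS1, an antisense transcript, 2.74-fold, both from DMSO values under 4. SLC30A4, a zinc transporter, read 5.90, 5.63 and 5.16 against 6.95, 7.10 and 6.44 (log2 fold change 1.27, adjusted p = 0.0205, limma). The calls of C8orf89 and SLC30A4 were each made in 1 of the 6 fits without 1 array and that of FOXP1-AS1 in 2. IQCN, picked after its values were seen, rose 2.29-fold in all 6.

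The drug targets and their close partners showed few calls. SYK read 9.06, 9.18 and 8.66 in DMSO and 9.39, 9.45 and 9.24 under Ento+AZD, which did not overlap and gave a log2 fold change of 0.39 (adjusted p = 0.2, limma). BRD2 and BRD3 gave 0.05 and -0.22, and no member of the 25 BET and P-TEFb genes was called. HEXIM1, an inhibitor of P-TEFb, gave -0.15. MYC read 9.34, 9.55 and 9.35 in DMSO and 9.26, 9.07 and 8.98 under Ento+AZD, which did not overlap and gave -0.31 (adjusted p = 0.34, limma). None of the 13 genes of the MYC network was called, with a list median of -0.25.

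Of the 36 genes of SYK and proximal B-cell receptor signalling 1 was called, and the list median was -0.01. PTPN6, the phosphatase SHP-1 that dampens receptor signalling, read 5.97, 6.53 and 5.44 in DMSO and 4.98, 4.78 and 4.44 under Ento+AZD, 2.38-fold lower (adjusted p = 0.00911, limma). The call was lost without Ento+AZD replicate 2 or DMSO replicate 2. CD79A and CD22 gave 0.15 and 0.31 and were not called. Among 39 early genes after receptor signalling 1 was called, DUSP1, a phosphatase of MAP kinases, which read 7.39, 6.09 and 7.41 against 6.70, 4.69 and 6.32. Its groups overlapped, and it fell by 1.06 in a fit that compared arrays of the same number (adjusted p = 0.0172, limma). The call was lost without replicate 2 or replicate 3 of either group and under either scaling. EGR1, named after its values were seen, gave -0.71 (adjusted p = 0.225, limma) and was not called.

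The apoptosis regulators had 1 called member of 19. BCL2A1, an antiapoptotic relative of BCL2 and a target of NF-kappaB, read 8.70, 8.38 and 8.20 in DMSO and 7.62, 7.53 and 6.85 under Ento+AZD, 2.13-fold lower (adjusted p = 0.0112, limma). The groups did not overlap, but the call was lost without DMSO replicate 2, without replicate 3 of either group, and after quantile normalization (-0.96) or centring (-0.96). BCL2 and MCL1 gave 0.19 and 0.06, and BCL6 gave 0.12, none of them called. The 30 FOXO-linked genes had 2 members called lower and 1 higher, with a median of 0.02. IL7R, the interleukin-7 receptor, fell by 1.69 (adjusted p = 0.0349, limma), a call made in 1 of the 6 fits without 1 array and lost after centring.

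IL7R is also a T-cell marker, and with CD247 (-1.02, adjusted p = 0.0121, limma) it made 2 of 9 T-cell markers called lower, both under 2-fold or above the adjusted p threshold after centring. The mean level of these 9 markers ran from 3.77 to 4.03 over the DMSO arrays and from 3.41 to 3.55 over the Ento+AZD arrays. The defining markers CD3D, CD3E and CD3G had DMSO means of 3.34, 4.19 and 2.29, under the array medians, and none of them was called. No NK, myeloid, erythroid, epithelial or stromal marker was called.

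The remaining lists had at most 2 called members each. No member was called of the 16 MHC class II genes (median 0.08), the 26 migration receptors or the 75 cytosolic ribosomal proteins (median 0.04). Of the 26 TNF receptor and SLAM family genes CD84, a SLAM family receptor, fell by 1.19, a call made in 1 of the 6 fits without 1 array. Of the 44 RGS and G protein genes RGS9 and GNB3 fell by 1.42 and 1.08, calls lost without DMSO replicate 2 and, for GNB3, also without Ento+AZD replicate 2 and under either scaling. Of the 278 rows called lower 134 belonged to a list and 144 to none, and of the 26 called higher 4 belonged to a list. SPARCL1, a matrix protein that lay outside the lists, read 3.56, 3.47 and 3.86 in DMSO and 2.15, 2.26 and 2.30 under Ento+AZD, 2.62-fold lower (adjusted p = 0.00174, limma), at values under every array's median and with no measured background.

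The single compounds were then set beside the combination. These comparisons share the same 3 DMSO arrays, so their values are given side by side and were not tested for likeness. Against DMSO 13 rows were called under Ento (10 higher, 3 lower) and 46 under AZD (none higher). The median of the mitosis list was -0.32 under Ento, -0.76 under AZD and -1.14 under Ento+AZD. MYB gave log2 fold changes of -0.48, -1.45 and -2.56 in that order, and SLC7A11 gave -0.77, -0.98 and -1.80. CDKN1B gave -1.01, -1.37 and -1.39, while EPSTI1 gave -0.46, -1.88 and -2.12.

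**Figure D4:**
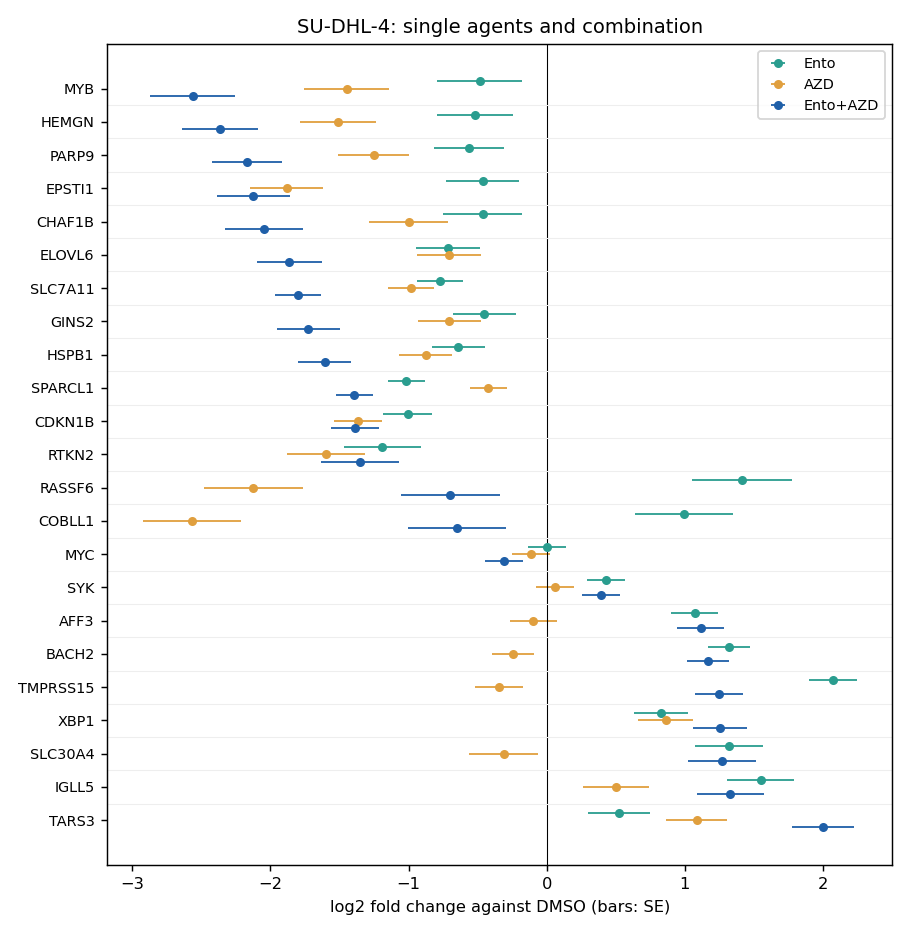
Log2 fold change against DMSO in SU-DHL-4 for 23 genes under Ento, AZD and Ento+AZD, with bars of 1 SE from the limma fit. MYB lies at -0.48, -1.45 and -2.56, and BACH2 at 1.32, -0.24 and 1.17.

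Tested directly, Ento+AZD differed from Ento in 21 called rows (0.0821% of rows), 18 lower and 3 higher, with 2474 rows at an unadjusted p under 0.05. MYB was 2.08 lower on the log2 scale in the combination (adjusted p = 0.0451, limma), HEMGN 1.85 lower and PARP9 1.61 lower at the same adjusted p. SLC7A11 was lower by 1.03 (adjusted p = 0.0464, limma), CDC25A by 1.36, EPSTI1 by 1.66 and GNB3 by 1.2. TARS3 was 1.48 higher (adjusted p = 0.0451, limma). The count was 0 in each fit without 1 array of either group except that without Ento replicate 2, which gave 23, and 0 without the replicate term.

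Ento+AZD differed from AZD in 7 called rows (0.0274% of rows), 6 higher and 1 lower, with 1798 rows at an unadjusted p under 0.05. BACH2 was 1.41 higher in the combination (adjusted p = 0.00632, limma), AFF3 1.21 higher (adjusted p = 0.0314, limma) and TMPRSS15 1.59 higher (adjusted p = 0.00632, limma). In these genes Ento alone gave 1.32, 1.07 and 2.07 and AZD alone -0.24, -0.10 and -0.34. Picked after their values were seen, LPP, a focal adhesion protein, and PDE4B, a cAMP phosphodiesterase, were 1.29 and 1.38 higher, and SLAMF1, a SLAM family receptor, was 1.58 lower. The count was 1 or 2 in each fit without 1 array of either group except that without AZD replicate 2, which gave 22, and 1 without the replicate term.

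The single compounds gave values of opposite sign in COBLL1 and RASSF6, chosen because the study names them. COBLL1, an actin-binding protein, gave 0.99 under Ento, -2.57 under AZD and -0.65 under Ento+AZD. RASSF6, a Ras association domain protein, gave 1.41, -2.12 and -0.70. Neither was called in the combination.

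The same combination was given to DG-75. In that line 213 rows were called, 32 higher and 181 lower, and the median of the mitosis list was -0.89. MYB gave -1.52 there and SLC7A11 -1.16. The difference between the lines, tested over 24 arrays, was called in 9 rows (0.0352% of rows), 3 higher and 6 lower in SU-DHL-4, with 1664 rows at an unadjusted p under 0.05. No member of the cell cycle lists was among them.

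HEMGN fell by 2.36 in SU-DHL-4 and gave 0.01 in DG-75, a difference of -2.37 (adjusted p = 0.0126, limma). Its DG-75 values were 2.48, 2.43 and 2.11 in DMSO and 2.43, 2.39 and 2.22 under Ento+AZD, all at the low end of the arrays. ELOVL6 read 8.92, 8.86 and 8.71 in DG-75 DMSO and 8.71, 9.0 and 8.77 under Ento+AZD, a difference between lines of -1.86 (adjusted p = 0.0168, limma). HSPB1 read 10.02, 10.52 and 9.84 against 10.09, 10.16 and 9.93 there, a difference of -1.54 (adjusted p = 0.0226, limma), so the DG-75 groups of these genes overlapped.

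DUSP1 gave 0.67 in DG-75 and differed by -1.74 (adjusted p = 0.0126, limma). TMPRSS15 gave -0.29 in DG-75 and differed by 1.54 (adjusted p = 0.0126, limma). The other rows called, named after their values were seen, were CCR7, a chemokine receptor, with -0.57 here and 1.37 in DG-75, S100A13 (-1.04 and 0.70), LPP (0.86 and -0.35) and NRG4, a ligand of ERBB4 (0.45 and -1.69). PARP9 gave -0.04 in DG-75, and its difference of -2.13 had an adjusted p of 0.0623 (limma) and was not called. The count of 9 became 0 when replicate 1 of either DG-75 group, or the third DMSO array of that line, was left out. Leaving out a treated SU-DHL-4 array gave 2 (replicate 2) or 1 (replicate 3), leaving out DMSO replicate 3 of SU-DHL-4 gave 5, and leaving out the third treated DG-75 array gave 18.

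**Figure D5:**
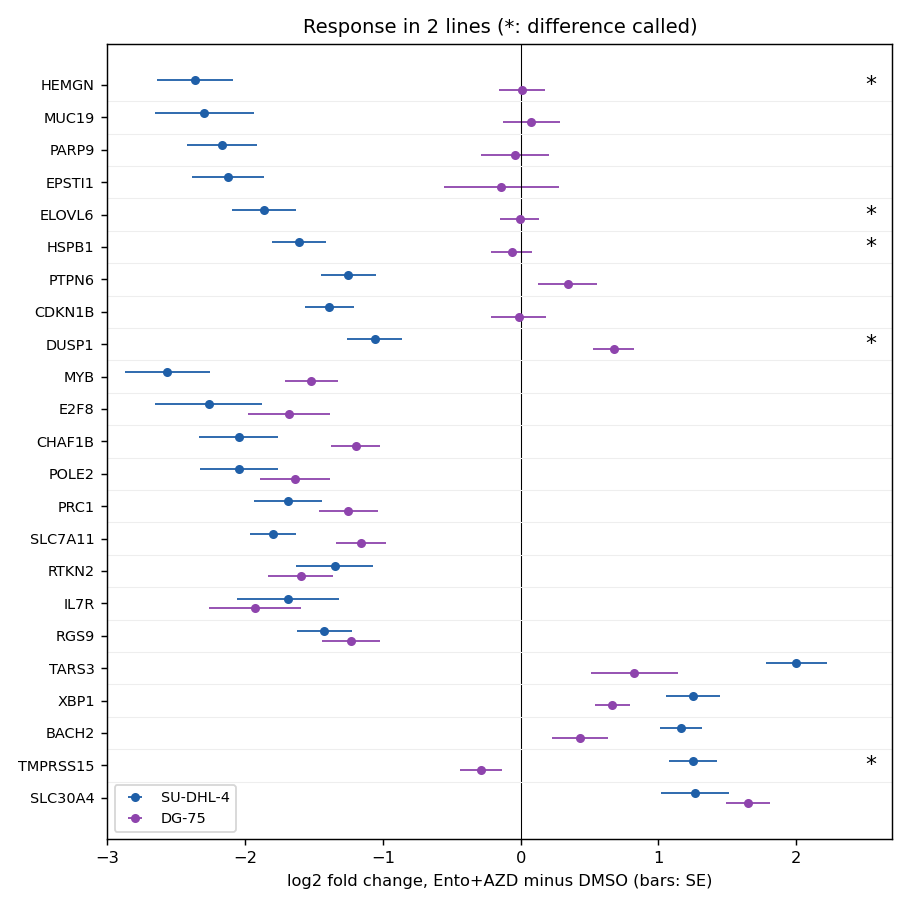
Log2 fold change of Ento+AZD against DMSO in SU-DHL-4 and DG-75 for 23 genes, with bars of 1 SE. Asterisks mark HEMGN, ELOVL6, HSPB1, DUSP1 and TMPRSS15, whose difference between lines was called.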

How the data were processed

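RNA of 24 samples was hybridised to Clariom D human arrays (2 lines, 4 treatments, 3 replicates each). The authors deposited log2 values after RMA, which corrects background, quantile normalizes and summarises probes, and mapped probes to genes with affycoretools; the genome build and annotation version were not given in the sources used here. No detection values were used, so low values cannot be told from background. Every column was matched to a sample, and no 2 arrays were identical. Of 25161 symbols, 24636 were current in RefSeq, 331 were synonyms and 194 did not match; 315 had several rows.

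limma 3.58.1 (R 4.3.3) fitted the 12 SU-DHL-4 arrays with treatment and replicate number. The study's methods fit a batch term without saying what it marks, and the replicate number stood in for it here, a choice on which most calls depend (304 with it, 45 without); 24 arrays with replicate within line gave the difference between lines. Calls needed an adjusted p under 0.05 (Benjamini-Hochberg over 25575 rows) and a fold above 2. The code was tested on simulated data. Groups came from the sample labels. The number of arrays limits the precision, and p-values measure the spread between these arrays.

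The members, gene lists and rules were chosen with earlier results of these data known, so p-values are descriptive. Named were the 12 largest falls and rises with the same sign in 3 same-numbered differences, up to 4 called members per list and direction by smallest adjusted p (or the 2 with the highest mean where fewer than 2 were called), SYK, BRD2, BRD3, MYC, HEXIM1, BCL6, BCL2 and genes the study names. Other members of the lists are given as examples chosen after their values were seen. A symbol with several rows was represented by the row with the highest mean. Alternatives were no replicate term, other sets of arrays, a filter on low rows, quantile normalization, centring, another prior, no fold minimum, a test against a fold of 1.2, 1 row per symbol and leaving out each array. Some genes are not reported here.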

Additional observations from a re-analysis of the deposited data

Results flagged for a closer look

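The log2 response to Ento+AZD differed between SU-DHL-4 and DG-75 in 5 named genes, by the difference itself in a limma fit of 24 arrays. The response in SU-DHL-4 minus that in DG-75 was -2.37 for HEMGN (adjusted p = 0.0126), -1.86 for ELOVL6 (adjusted p = 0.0168), -1.74 for DUSP1 (adjusted p = 0.0126), -1.54 for HSPB1 (adjusted p = 0.0226) and 1.54 for TMPRSS15 (adjusted p = 0.0126). HEMGN lay between 2.11 and 2.48 in all 6 of these DG-75 arrays, near the low end of the values, and whether a fall could be seen at that level was not tested. The calls between lines, 9 in all, became 0 when DG-75 Ento+AZD replicate 1, or replicate 1 or 3 of its DMSO group, was left out.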

How the results depend on the processing

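The count of 304 rows in Ento+AZD against DMSO became 45 without the replicate block, 604 with no fold minimum and 133 in the treat test against a fold of 1.2, and ran from 0 to 330 over the fits without an array or a replicate number, the 0 being without replicate 3. It lay between 224 and 350 in the other settings. The 21 rows against Ento became 0 without the replicate block, in a fit of the 2 groups alone, after quantile normalization and in the treat test, 90 in 1 fit of all 24 arrays, 55 without the rows under the median mean and 107 with a trend and robust prior, and ran from 0 to 23 over fits without an array. The 7 rows against AZD became 1 without the replicate block and in the 2-group fit, 12 with all 24 arrays, 15 with the trend and robust prior and 3 in the treat test, and ran from 0 to 22. The 9 rows that differed between lines became 1 without the replicate block, 5 without low rows, 32 with the trend and robust prior and 3 in the treat test, and ran from 0 to 18. The cause was not tested. Over the single genes named, 1645 alternative values kept their direction and side of the threshold, 379 kept the direction but no longer passed, 38 moved and 0 called values changed sign. The deviations of same-numbered arrays from their group means were correlated over genes, with values given for replicates 1, 2 and 3 in turn. The correlations were 0.00, 0.17 and 0.15 for DMSO with Ento+AZD, 0.15, 0.39 and 0.25 for Ento with Ento+AZD and 0.14, 0.12 and 0.21 for DMSO with AZD. They were -0.03, 0.09 and 0.20 for AZD with Ento+AZD, 0.02, 0.19 and 0.26 for DMSO with Ento and -0.11, 0.08 and 0.21 for Ento with AZD. Replicate 3 was above 0.1 in every comparison. Replicate 2 was under 0.1 only for AZD with Ento+AZD and Ento with AZD. Replicate 1 was above 0.1 only for DMSO with AZD and Ento with Ento+AZD. Values of low genes have no measured background.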
